A study of Mus musculus with 10 samples.

Results

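The genes described here mark neurons by the transmitter they release: Slc17a6, Slc17a7 and Slc17a8 for glutamate, Chat and Slc5a7 for acetylcholine, and Tph2 for serotonin. They were chosen by gene symbol, and all 6 are among the 18464 genes of the deposited table. They were measured in RNA purified from astrocytes of the ventral midbrain and in the input RNA. The question is how much their levels vary between the inputs and how much of each is left in the astrocyte fraction.

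Glutamate neurons load synaptic vesicles with a vesicular glutamate transporter, VGLUT2 in most neurons of the thalamus, hypothalamus and brainstem, VGLUT1 mainly in cortex, hippocampus and cerebellum, and VGLUT3 in scattered neurons that often release a second transmitter. Cholinergic neurons make acetylcholine with choline acetyltransferase, fill vesicles with a transporter whose gene lies inside the choline acetyltransferase gene, and take choline back up with a high-affinity transporter. Serotonin neurons of the raphe nuclei, which reach the midline of the midbrain, carry out the first step of serotonin synthesis with neuronal tryptophan hydroxylase. The substantia nigra pars compacta and the ventral tegmental area are known chiefly for dopamine neurons, with fewer glutamate neurons beside them.

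The samples are 10 polyA RNA libraries from the ventral midbrain, labelled SNpc/VTA, of untreated (naive) Aldh1l1-NuTRAP animals, a mouse strain in which the Aldh1l1 promoter, used in brain mostly by astrocytes, drives a tag on ribosomes. Translating ribosome affinity purification, or TRAP, recovers RNA bound to the tagged ribosomes. The astrocyte fraction has 5 libraries and the input, labelled as RNA of CNS cell types, has 5. Animals of both groups carry the tag and none received a drug, the age is not given, and the titles carry the numbers 88, 92, 976, 981 and 982, each on 1 astrocyte fraction and 1 input library, without saying whether a number is 1 animal.

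The total of estimated counts was 3845554 in the astrocyte fraction library 92, 24479136 to 26924406 in the other 4 astrocyte fraction libraries and 21812193 to 30878894 in the inputs. Levels are CPM, that is counts scaled to a common library size. A count of 0 allows up to 3 counts, worth 0.880 CPM in that shallow library, 0.120 to 0.136 CPM in the rest of the astrocyte fraction and 0.0912 to 0.125 CPM in the inputs. The labelled cell types were found in the data: the summed level of 15 astrocyte markers was 31747 to 46207 CPM in the astrocyte fraction and 5574 to 6146 CPM in the inputs, and the 15 listed dopamine neuron genes were all in the table. The choroid plexus and ependyma list, of which 9 of 11 genes are in the table, set libraries 976 and 982 apart. Its summed level was 12683 and 2712 CPM in the astrocyte fraction libraries 976 and 982 against 137 to 166 CPM in the rest of that group, and 3315 and 732 CPM in the inputs 976 and 982 against 30.7 to 51.3 CPM in the other inputs.

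The 6 genes fell into 2 sets by their spread over the inputs. Slc17a6 and Slc17a8 differed less than 2-fold between inputs, whereas Slc17a7, Slc5a7, Chat and Tph2 differed by 5.48-fold, 8.55-fold, 25.4-fold and 123-fold. A spread of over 4-fold was thus seen in 4 of the 6 genes, where 3.35% of all 17672 tested genes had one, and a spread of over 10-fold in 2 of the 6, where 0.622% of tested genes had one. Among genes that averaged at least 1 CPM in the inputs, as all 6 did, 2.36% exceeded 4-fold. In the astrocyte fraction 4 of the 6 genes were called lower and 2 were not called. A call means a Benjamini-Hochberg adjusted p below 0.05 over all tested genes in edgeR's quasi-likelihood test, and by that measure 37.5% of all tested genes were lower and 33.1% higher, against 0 of the 6 higher. Libraries of the same title number varied together more, on average, than those of different numbers. With the title number as a block, all 6 were called lower, beside 38.7% of all tested genes. The median log2 fold change of the 6 was -2.45 and that of all tested genes -0.06. The table holds only genes with at least 5 counts in every library of 1 or both groups. Slc17a6, Slc17a7 and Chat met that in both groups, whereas Slc17a8, Slc5a7 and Tph2 entered through the input alone, with fewer counts in some astrocyte fraction library. In these tissue samples fewer cells of a type and less RNA per cell cannot be told apart.

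**Figure D1:**
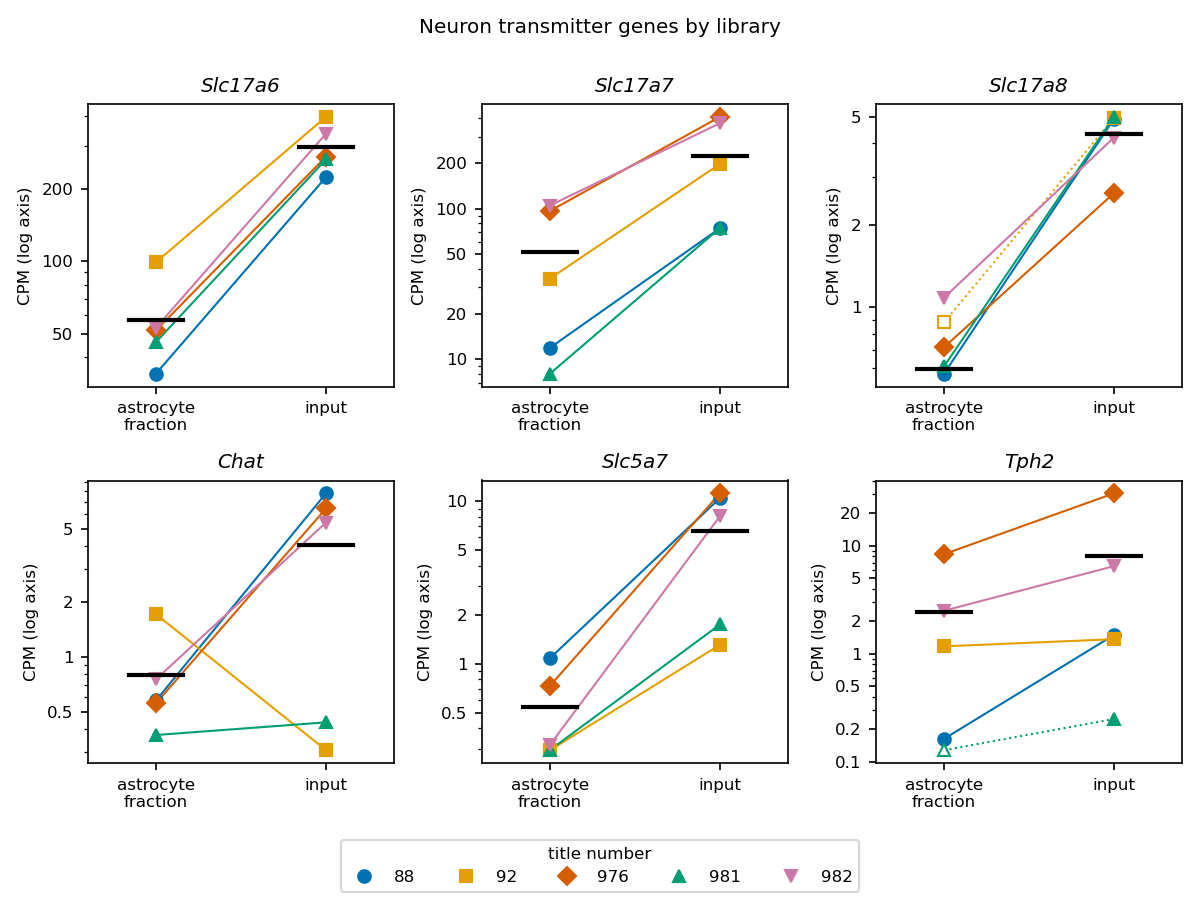
Level of each gene in CPM (log axis, own scale for each gene) in the 5 astrocyte fraction libraries, left, and the 5 inputs, right, with lines joining libraries of the same title number and black bars at the group means. Open symbols with dotted lines are counts of 0, drawn at the level that 3 counts would give. Slc17a6 inputs lie between 224 and 398 CPM, whereas Tph2 inputs run from 0.249 to 30.7 CPM.

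Slc17a6, which encodes VGLUT2 (ENSMUSG00000030500, mm10 chromosome 7, 51622006 to 51671119, plus strand), had the highest mean level of the 6 genes in both groups. It also had the smallest spread of the 6 over the inputs. It had 34.2, 99.1, 51.7, 46.2 and 53.02 CPM in the astrocyte fraction libraries 88, 92, 976, 981 and 982, against 224, 398, 272, 265 and 339 CPM in the inputs of the same order. Every astrocyte fraction library was below every input, and number 92 was the highest in both groups. The mean was 56.8 ± 24.8 CPM in the astrocyte fraction and 299.6 ± 68.7 CPM in the input (SD, n = 5 each), a log2 fold change of -2.44 ± 0.29 (adjusted p = 1.27e-05). Standard errors here and below are those of the difference of mean log2 CPM over the libraries. Of all tested genes, 31.1% had an astrocyte fraction wholly below the input, as 3 of the 6 genes did, and 38.3% were lower in 5 of 5 numbers, as 5 of the 6 genes were. Slc17a8 and Slc5a7 are in both counts and Tph2 is in the second. These genes entered the table through the input alone, which favours a low astrocyte fraction, so both counts are a description only.

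Slc17a7, which encodes VGLUT1 (ENSMUSG00000070570, chromosome 7, 45163949 to 45176142, plus strand), reached the level of Slc17a6 in some dissections and not in others. It had 11.9, 34.4, 96.8, 8.03 and 105 CPM in the astrocyte fraction libraries 88, 92, 976, 981 and 982, against 74.3, 198, 408, 74.5 and 370 CPM in the inputs of the same order. Numbers 976 and 982 were the highest and 88 and 981 the lowest in both groups, and the groups overlapped because the astrocyte fractions 976 and 982 exceeded the inputs 88 and 981. The mean was 51.2 ± 46.5 CPM in the astrocyte fraction and 225 ± 158 CPM in the input (SD, n = 5 each). The log2 fold change was -2.12 ± 0.93 and missed the threshold in the unpaired fit (adjusted p = 0.0534), while the fit that paired libraries by title number gave -2.40 (adjusted p = 1.93e-05). Each of the 5 numbers had less Slc17a7 in the astrocyte fraction than in its input. Of all tested genes, 0.690% had a larger SD of log2 CPM over the inputs than Slc17a7, whose SD was 1.20, against 23.8% for Slc17a6 with an SD of 0.32.

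The 2 libraries with the most Slc17a7 were also those that stood apart by choroid plexus and ependyma genes, and the part of that difference in the spread of Slc17a7 was not tested. Without numbers 976 and 982 the log2 fold change of Slc17a7 was -2.83 (adjusted p = 0.00835). Per kilobase of exon, the ratio of Slc17a7 to Slc17a6 was 0.350, 0.348, 1.88, 0.174 and 1.98 in the astrocyte fraction libraries 88, 92, 976, 981 and 982, against 0.333, 0.499, 1.50, 0.282 and 1.09 in the inputs of the same order. VGLUT1 transcripts thus outnumbered VGLUT2 transcripts per length in both libraries of numbers 976 and 982 and in neither library of the other 3 numbers. The transcripts of the 3 VGLUT genes share no run of 50 bases, so reads of that length or more that match exactly do not belong to more than 1 of them.

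**Figure D2:**
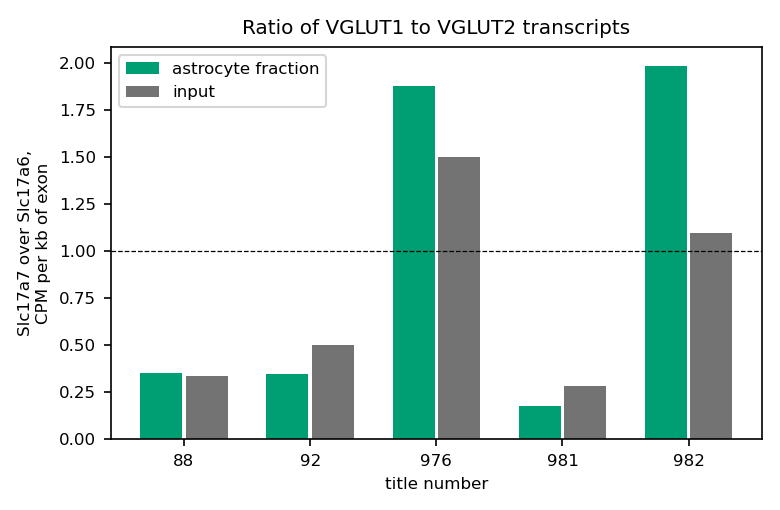
Ratio of Slc17a7 to Slc17a6, each in CPM per kilobase of exon, in the astrocyte fraction (green, left bar) and the input (grey, right bar) of each title number, with a dashed line where both are equal. Numbers 976 and 982 lie above 1 in both groups, at 1.88 and 1.98 in the astrocyte fraction and 1.50 and 1.09 in the input, and the other numbers lie at or below 0.499.

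Slc17a8, which encodes VGLUT3 (ENSMUSG00000019935, chromosome 10, 89574020 to 89621253, minus strand), was scarce in every library. It had 0.571, 0, 0.714, 0.607 and 1.09 CPM in the astrocyte fraction libraries 88, 92, 976, 981 and 982, against 4.93, 4.97, 2.63, 5.01 and 4.21 CPM in the inputs of the same order. The groups did not overlap, and the count of 0 in the shallow library 92 allows up to 0.880 CPM. The mean was 0.595 ± 0.390 CPM in the astrocyte fraction and 4.35 ± 1.02 CPM in the input (SD, n = 5 each), a log2 fold change of -2.54 ± 0.70 (adjusted p = 2.15e-05). Its input spread of 1.90-fold rested on input 976, the lowest, and was 1.19-fold without it. Number 976 therefore had the most Slc17a7 of the inputs and the least Slc17a8.

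Chat and Slc5a7, the cholinergic genes, were higher in inputs 88, 976 and 982 than in inputs 92 and 981. Chat encodes choline acetyltransferase (ENSMUSG00000021919, chromosome 14, 32408203 to 32465989, minus strand). It had 0.575, 1.70, 0.556, 0.372 and 0.751 CPM in the astrocyte fraction libraries 88, 92, 976, 981 and 982, against 7.81, 0.308, 6.46, 0.437 and 5.41 CPM in the inputs of the same order. The groups overlapped, since input 92, with 10 counts, was below every astrocyte fraction library and input 981, with 11 counts, below 4 of the 5. The mean was 0.792 ± 0.528 CPM in the astrocyte fraction and 4.08 ± 3.49 CPM in the input (SD, n = 5 each). The fitted log2 fold change was -2.47 (adjusted p = 0.0205), and the difference of mean log2 CPM was -1.53 ± 1.01 (SE). Chat was lower in the astrocyte fraction in 4 of 5 numbers, and higher in number 92, where 6 counts stood against 10 in the deeper input. The call ended without the astrocyte fraction library 976 or 981 (adjusted p = 0.0524 and 0.0522), and without number 88, 976 or 982 (adjusted p = 0.0929, 0.0917 and 0.0699).

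Slc5a7 encodes the high-affinity choline transporter (ENSMUSG00000023945, chromosome 17, 54273594 to 54299034 in the table, minus strand). It had 1.08, 0.293, 0.731, 0.294 and 0.316 CPM in the astrocyte fraction libraries 88, 92, 976, 981 and 982, against 10.5, 1.31, 11.2, 1.74 and 8.09 CPM in the inputs of the same order. The same 3 inputs were high as for Chat, yet each input stayed above each astrocyte fraction library. The mean was 0.543 ± 0.354 CPM in the astrocyte fraction and 6.56 ± 4.74 CPM in the input (SD, n = 5 each), a log2 fold change of -3.33 ± 0.74 (adjusted p = 0.00072). Of all tested genes, 0.311% had a larger SD of log2 CPM over the inputs than Slc5a7, and 0.0962% a larger one than Chat.

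Slc18a3, which encodes the vesicular acetylcholine transporter and lies inside an intron of Chat on the same strand (chromosome 14, 32462438 to 32464850), shares 0 exon bases with Chat. It had 0.286, 0, 0.319, 0.0428 and 1.09 CPM in the astrocyte fraction libraries 88, 92, 976, 981 and 982, against 5.50, 0.213, 6.86, 0.541 and 4.93 CPM in the inputs of the same order. The inputs again split into 88, 976 and 982 against 92 and 981, a 32.2-fold range. The log2 fold change was -2.94 ± 1.16 (adjusted p = 0.0168), and the call ended without number 88 or 976 (adjusted p = 0.0735 and 0.0794). Unspliced Chat RNA runs across Slc18a3, and how the counting treated such reads is not given in the sources used here.

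Because Chat, Slc18a3 and Slc5a7 moved together over the inputs, the sequence before each start is shown. For Slc18a3 and Slc5a7 these are the 250 bases just before the RefSeq start on GRCm38.p6. The Chat window is shorter, at 170 bases, and lies just before the Chat coordinates given above. It was cut at the edge of those coordinates and stops short of the RefSeq start of Chat. The bases next to that start are therefore missing. All windows are on the minus strand and written in the direction of transcription, with TATAAA in capitals. The Chat window is at chr14:32465990-32466159, the Slc18a3 window at chr14:32464851-32465100 and the Slc5a7 window at chr17:54299035-54299284.
Chat: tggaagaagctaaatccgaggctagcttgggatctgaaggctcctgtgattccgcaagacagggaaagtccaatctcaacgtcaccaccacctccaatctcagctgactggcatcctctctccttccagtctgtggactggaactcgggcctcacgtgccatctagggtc
Slc18a3: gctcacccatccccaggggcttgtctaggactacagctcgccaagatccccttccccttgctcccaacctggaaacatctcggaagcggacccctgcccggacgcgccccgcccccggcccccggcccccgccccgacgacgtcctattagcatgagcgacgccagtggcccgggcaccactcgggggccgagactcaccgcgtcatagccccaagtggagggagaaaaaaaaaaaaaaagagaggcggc
Slc5a7: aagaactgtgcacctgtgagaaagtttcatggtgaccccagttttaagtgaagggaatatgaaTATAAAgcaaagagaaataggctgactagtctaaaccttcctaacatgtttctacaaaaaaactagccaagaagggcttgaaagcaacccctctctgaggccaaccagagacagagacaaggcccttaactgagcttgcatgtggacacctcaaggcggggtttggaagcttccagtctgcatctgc
The letters TATAAA occur in the Slc5a7 window 187 bases before the start and in neither of the other windows. On either strand, 13.6% of 32851 RefSeq promoter windows of 300 bases hold TATAAA. The neuronal repressor REST binds an element, RE1, with a left and a right part. The left part was searched as CAGCACC, which 7.14% of all promoter windows hold. The right part was searched as GGACAG, which 22.2% hold. Neither was found on either strand of these 3 windows, which describes these letters only.

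Tph2, which encodes neuronal tryptophan hydroxylase (ENSMUSG00000006764, chromosome 10, 115078641 to 115185022, minus strand), had the widest spread of the 6 genes. It had 0.163, 1.17, 8.38, 0 and 2.51 CPM in the astrocyte fraction libraries 88, 92, 976, 981 and 982, against 1.50, 1.37, 30.7, 0.249 and 6.50 CPM in the inputs of the same order. Number 976 was highest and 982 second in both groups, number 981 lowest, and the groups overlapped. The lowest input rests on 6 counts and the highest on 832. Of all tested genes, 0.0396% had a larger SD of log2 CPM over the inputs, where that of Tph2 was 2.48. The 123-fold range was 26.0-fold without input 976 and 22.4-fold without input 981.

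The mean of Tph2 was 2.44 ± 3.46 CPM in the astrocyte fraction and 8.05 ± 12.9 CPM in the input (SD, n = 5 each). The log2 fold change was -1.61 ± 1.63 in the unpaired fit (adjusted p = 0.335). Paired by title number it was -1.68 (adjusted p = 0.00054), and each of the 5 numbers had less Tph2 in the astrocyte fraction than in its input. Without input 976 the unpaired value was 0.092 (adjusted p = 0.953). Tph2 was highest in the libraries with the highest choroid plexus and ependyma sums, and the part of that difference in the spread of Tph2 was not tested. Paired by title number and without numbers 976 and 982 it was -1.62 (adjusted p = 0.0479).

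The Tph2 and Slc17a7 start regions are shown because both genes were highest in inputs 976 and 982. The Tph2 window is at chr10:115185023-115185272 on the minus strand, with TATAAA in capitals 30 bases before the start, and the Slc17a7 window is at chr7:45163671-45163920 on the plus strand, with GGACAG in capitals.
Tph2: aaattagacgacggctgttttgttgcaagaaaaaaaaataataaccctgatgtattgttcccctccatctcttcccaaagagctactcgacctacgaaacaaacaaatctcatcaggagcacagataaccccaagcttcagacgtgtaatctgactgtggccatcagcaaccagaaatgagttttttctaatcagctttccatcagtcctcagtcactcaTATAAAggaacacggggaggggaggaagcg
Slc17a7: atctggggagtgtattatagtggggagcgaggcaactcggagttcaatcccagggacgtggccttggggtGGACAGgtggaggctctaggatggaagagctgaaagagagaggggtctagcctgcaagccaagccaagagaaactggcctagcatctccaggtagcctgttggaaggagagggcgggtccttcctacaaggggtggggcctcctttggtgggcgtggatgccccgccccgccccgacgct
A further stretch follows the Tph2 start, at bases 9 to 35 of the first exon (chr10:115184988-115185014, minus strand), and holds both parts of the RE1 element in capitals with 8 bases between them.
Tph2 after the start: ttCAGCACCagggttctGGACAGcgcc
Both parts on 1 strand with at most 10 bases between them occur in 36 of the 32851 windows, or 0.110%. This spacing was looked for after the Tph2 window had been read. The Slc17a7 window holds GGACAG at 180 bases before the start and lacks the left part, and these letters are a description and not evidence of binding.

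The level left in the astrocyte fraction was set beside that of neuronal transcripts in general. The 18 pan-neuronal genes, for example the neuronal tubulin gene Tubb3 and the neuronal enolase gene Eno2, had a median level in the astrocyte fraction of 19.7%, 22.2%, 20.1%, 19.3% and 20.2% of the input in the numbers 88, 92, 976, 981 and 982. All 18 were called lower, beside 37.5% of all tested genes. Slc17a6 kept 15.3%, 24.9%, 19.0%, 17.4% and 15.6% of its input level in the same order, and the widest exact (Clopper-Pearson) 95% interval was 22.3 to 27.8%, in number 92. It was below the pan-neuronal median in 4 of 5 numbers.

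Slc17a7 kept 16.1%, 17.3%, 23.7%, 10.8% and 28.4% of its input level in the numbers 88, 92, 976, 981 and 982. Its residual was highest in numbers 976 and 982, where the intervals ran from 22.7 to 24.8% and from 27.1 to 29.7%. It was lowest in number 981, with an interval of 9.23 to 12.5%, so these differences between numbers exceeded counting error. Slc17a8 kept 11.6%, 27.1%, 12.1% and 25.8% in the numbers 88, 976, 981 and 982, and in number 92 its count of 0 allows up to 17.7%. Its median of 12.1% was 19.0% without number 88 or 92.

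The cholinergic genes split by input level. Chat kept 7.37%, 8.61% and 13.9% in the numbers 88, 976 and 982, where its input was high. In number 981 the astrocyte fraction held 85.3% of the input level (interval 30.8 to 223%), and in number 92 it held 554% (interval 173 to 1759%), on 11 and 10 input counts in that order. The median of 13.9% became 11.2% without number 92 or 981 and 49.6% without number 88 or 976. Slc5a7 kept 10.3%, 6.54% and 3.91% in the numbers 88, 976 and 982, each below the pan-neuronal median of that number. It kept 22.5% in number 92 on 1 count and 16.9% in number 981 on 7 counts.

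Tph2 kept 27.3% of its input level in number 976 (interval 23.4 to 31.8%) and 38.6% in number 982 (interval 28.4 to 52.98%), both above the pan-neuronal median of the same number by more than counting error. In number 88 it kept 10.9%, with an interval of 2.87 to 29.9% that takes in the pan-neuronal median. In number 92 it kept 85.8%, on 4 counts in the astrocyte fraction. In number 981 its count was 0, where 3 counts would give 51.4% and the exact interval ran from 0 to 87.3%. The summed choroid plexus and ependyma list was higher in the astrocyte fraction than in the input of numbers 976 and 982, as given above, and its part in the residual of Tph2 was not tested.

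Set against the pan-neuronal median of the same number, the residuals of the scarce genes varied widely and rested in part on number 92. The mean difference of the log2 ratio, gene minus pan-neuronal median, was -0.16 for Slc17a6, -0.15 for Slc17a7, -0.78 for Slc17a8, 0.77 for Chat, -0.79 for Slc5a7 and 0.68 for Tph2. The SD over the 5 numbers was 0.22, 0.52, 1.75, 2.43, 1.001 and 0.85 in that order of genes, so the mean difference was within 1 SD for all 6. That SD describes single numbers and not the error of the mean. It therefore does not show that a gene equals the pan-neuronal median. A count of 0, as for Slc17a8 in number 92 and Tph2 in number 981, entered these means through a prior count and is not a measured ratio. Without number 92 the means were -0.24, -0.093, -0.030, -0.13, -1.06 and 0.36 in the same order, so that of Slc17a8 was near 0 and that of Chat changed sign. The mean of Slc17a7 was 0.024 without number 981 and -0.30 without number 982, that of Slc5a7 was -0.48 without number 982, and that of Chat was 1.28 without number 88 and 1.22 without number 976. An exact two-sided sign-flip permutation test gave p-values between 0.125 for Tph2 and 0.625 for Chat, or 0.5 to 0.625 after adjustment over the 6 genes. With 5 pairs the smallest p this test can give is 0.0625, so it cannot pass 0.05 for any gene.

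**Figure D3:**
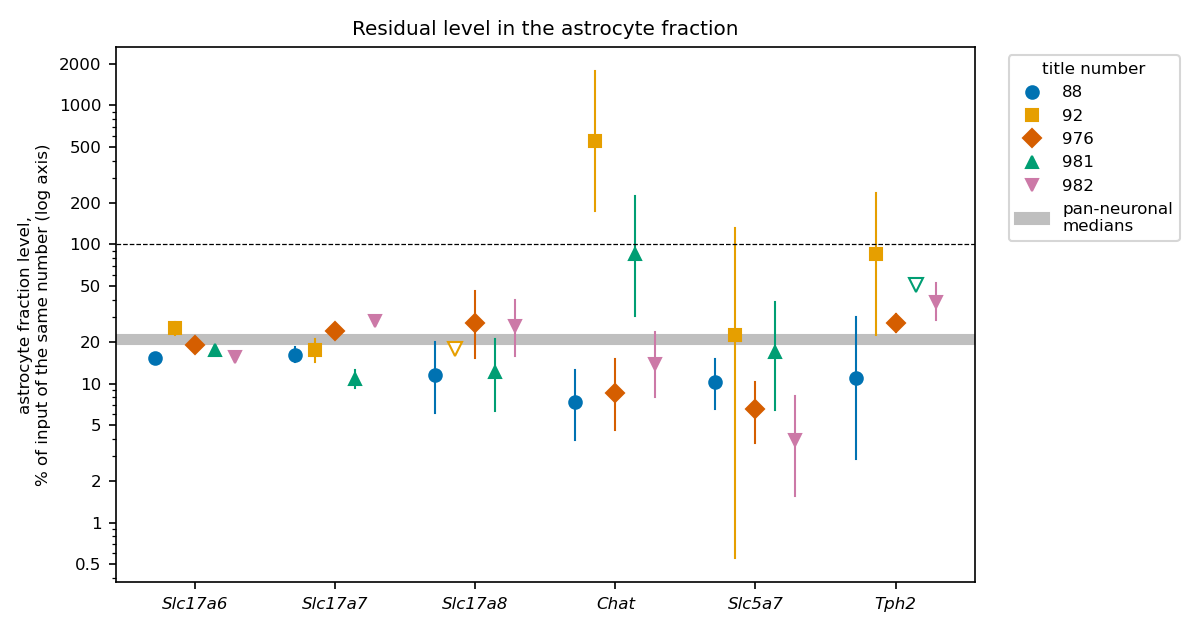
Level in the astrocyte fraction as percent of the input of the same title number (log axis) for each gene, with exact 95% intervals of the count ratio as vertical lines. Open triangles are counts of 0 drawn at the percent that 3 counts would give, the grey band spans the pan-neuronal medians of 19.3 to 22.2%, and the dashed line marks equal levels. Slc17a6 lies between 15.3 and 24.9%, whereas Chat runs from 7.37 to 554%.

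Per kilobase of exon the order of mean levels in the inputs was Slc17a6, Slc17a7, Tph2, Slc5a7, Slc17a8 and Chat. The means were 55.5 ± 12.7, 41.7 ± 29.4, 2.80 ± 4.47, 1.16 ± 0.839, 0.921 ± 0.215 and 0.868 ± 0.743 CPM per kilobase (SD, n = 5). The lowest Slc17a7 input, at 13.8 CPM per kilobase, was above the highest Tph2 input, at 10.7. Every other pair of neighbours in this order overlapped over the inputs. In the astrocyte fraction the means, for the genes in the input order, were 10.5, 9.50, 0.849, 0.0963, 0.126 and 0.168 CPM per kilobase.

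The inputs were also searched for the genes whose profile over the 5 libraries was most like that of each variable gene, measured as the root mean square (RMS) difference of log2 CPM after centring each gene on its mean. For Chat, its intronic neighbour Slc18a3 was at an RMS difference of 0.29 and Slc5a7 at 0.61, where the median over 13444 candidate genes was 1.92. Tac2, which encodes a tachykinin precursor, and Lrrc10b were at 0.52 and 0.54. Tac2 had 3.50, 1.14, 4.12, 0.511 and 3.49 CPM in the astrocyte fraction libraries 88, 92, 976, 981 and 982, against 14.95, 1.41, 20.5, 2.98 and 19.5 CPM in the inputs of the same order. It shared its high and low inputs with Chat and fell in the comparison (log2 fold change -2.10, adjusted p = 0.0353). In the astrocyte fraction the RMS difference of Tac2 from Chat was 1.27, where the median gene was at 0.72, so the likeness was seen in the inputs.

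For Slc5a7 the nearest were Crym, which encodes a thyroid hormone binding protein, at 0.095, Icam5, which encodes the telencephalic adhesion molecule telencephalin, at 0.25, and Tbr1, a transcription factor of cortical excitatory neurons, at 0.29, where the median gene was at 1.32. Tbr1 had 0.530, 2.05, 1.67, 0.214 and 1.58 CPM in the astrocyte fraction libraries 88, 92, 976, 981 and 982, against 6.09, 1.06, 5.01, 0.873 and 5.14 CPM in the inputs of the same order. For Slc17a7 the nearest were Myo5c, which encodes an unconventional myosin, at 0.20, Npr1, which encodes a natriuretic peptide receptor, at 0.29, and Lhx2, a forebrain transcription factor, at 0.37, where the median gene was at 1.08. Slc17a6 was at 0.95 from Slc17a7 and Slc17a8 at 1.34.

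For Tph2 the nearest were Sostdc1, which encodes a secreted BMP and Wnt antagonist, at 0.57, Aqp1, the water channel of the choroid plexus, at 0.60, and Lbp, which encodes a lipopolysaccharide binding protein, at 0.77, where the median gene was at 2.22. Aqp1 had 0.0816, 0.587, 197, 0.171 and 29.7 CPM in the astrocyte fraction libraries 88, 92, 976, 981 and 982, against 0.746, 0.426, 29.8, 0.208 and 6.68 CPM in the inputs of the same order. Tph2 and Aqp1 thus had close values in the inputs, while in the astrocyte fraction Tph2 had 8.38 CPM and Aqp1 197 CPM in library 976. All these distances rest on 5 libraries that share their depth and dissection, and they are a description with no test.

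**Figure D4:**
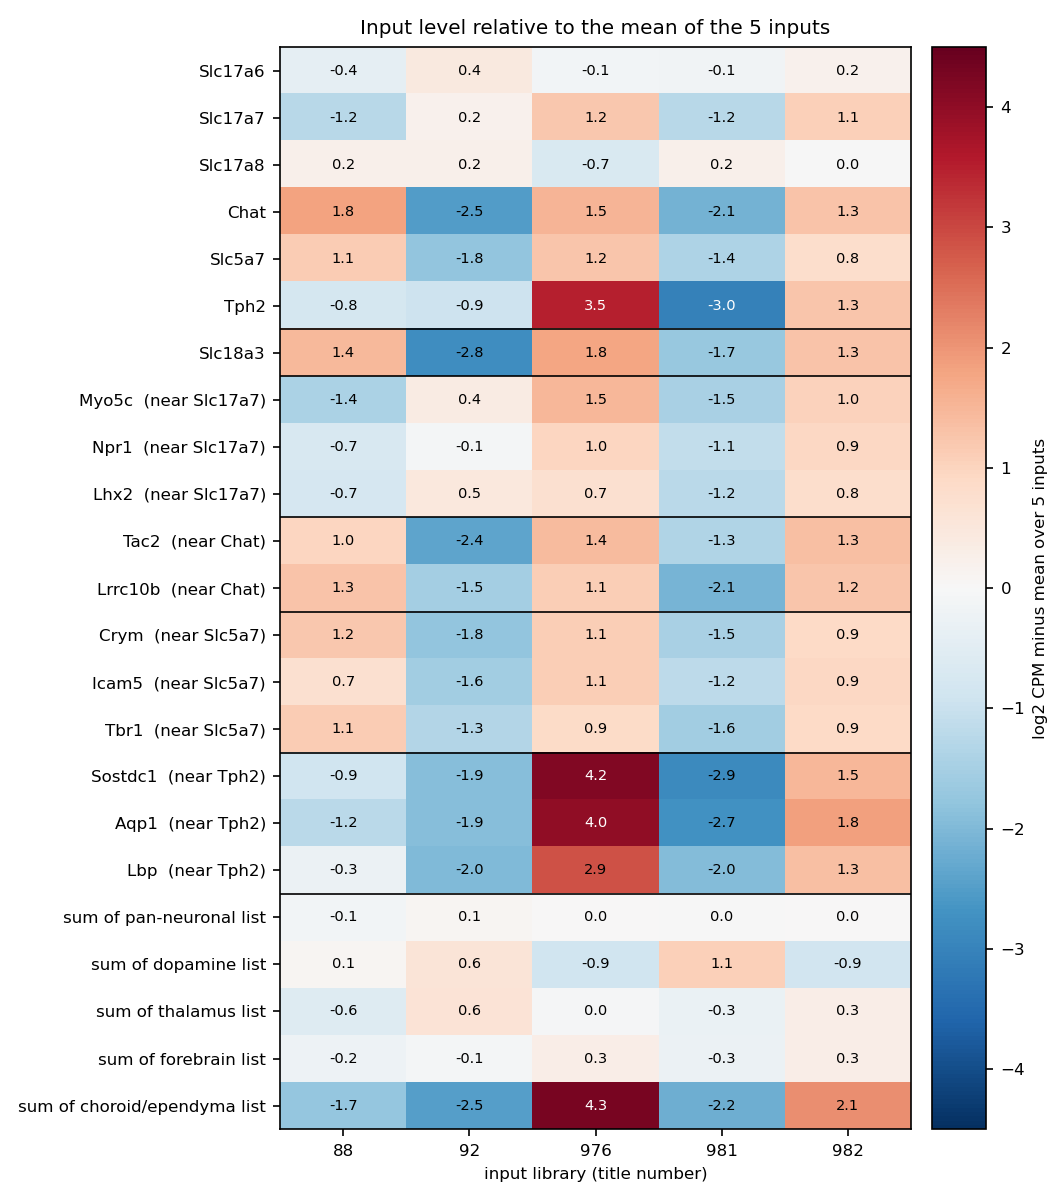
Level in each input (columns, title numbers) as log2 CPM minus the mean of the 5 inputs, for the 6 genes, Slc18a3, genes near in profile to each variable gene and the sums of 5 marker lists. Red is above and blue below the gene's own mean. Chat, Slc5a7 and Slc18a3 are high in 88, 976 and 982, Slc17a7 and Tph2 are highest in 976 and 982, and the pan-neuronal sum is nearly level, with a highest over lowest ratio of 1.18.

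The summed markers of brain regions and neuron types also differed between inputs. The 15 dopamine neuron genes summed to 1019, 1442, 525, 2046 and 531 CPM in the inputs 88, 92, 976, 981 and 982, so the inputs with the most Slc17a7 and Tph2 had the lowest dopamine sums. The 11 thalamic genes, such as Ramp3 and Slitrk6, summed to 1204, 2705, 1735, 1440 and 2221 CPM, highest in input 92, where Slc17a6 was also highest. Calb2 of that list, also on the interpeduncular and habenular list, was lowest in input 92, at 189 CPM, and highest in input 981, at 288 CPM. The 16 forebrain excitatory genes in the table summed to 1292, 1420, 1863, 1263 and 1879 CPM, highest in inputs 976 and 982. The pan-neuronal sum was 11895, 14002, 13159, 13020 and 13236 CPM. When each gene was divided by the pan-neuronal sum of its library, the input range was 5.41-fold for Slc17a7, 29.9-fold for Chat, 9.42-fold for Slc5a7 and 122-fold for Tph2.

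Other genes of the same pathways were mostly lower in the astrocyte fraction and varied less between inputs. All 12 listed genes of glutamate supply and release in neurons were called lower, beside 37.5% of all tested genes. Their median log2 fold change was -2.07, beside -0.06 for all tested genes. Got1, an aspartate aminotransferase, averaged 109 ± 14.7 CPM in the astrocyte fraction and 402 ± 18.6 CPM in the input (SD, n = 5 each), a log2 fold change of -1.88 (adjusted p = 1.35e-09). Slc1a1, the neuronal glutamate transporter, and Cplx1, which encodes the release regulator complexin 1, had log2 fold changes of -2.63 and -2.26. Of 6 other SLC17 transporters listed, Slc17a5, the lysosomal sialic acid transporter, is in the table, with 20.4 ± 4.30 CPM in the astrocyte fraction and 17.7 ± 1.75 CPM in the input (SD, n = 5 each, log2 fold change 0.19, adjusted p = 0.249).

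Of 16 listed cholinergic partner genes, 11 are in the table and all 11 were called lower, beside 37.5% of all tested genes. However, only 4 of the 11 met the count minimum of the table in both groups, and the others entered through the input alone. Ache, which encodes acetylcholinesterase, averaged 40.4 ± 4.48 CPM in the astrocyte fraction and 194 ± 15.7 CPM in the input (SD, n = 5 each), a log2 fold change of -2.25 (adjusted p = 2.95e-10). Its inputs spanned 1.18-fold, against 25.4-fold for Chat. Prima1, the membrane anchor of acetylcholinesterase, had a log2 fold change of -2.57, and Acly, which makes cytosolic acetyl-CoA, one of -0.55 (adjusted p = 3.88e-05). The listed genes that are not in the table could not be tested.

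Of the 15 serotonergic partner genes in the table, 10 were lower, 4 higher and 1 not called (median log2 fold change -2.01). Of all tested genes 37.5% were lower and 33.1% higher, so the share that was higher is near that of all genes. The lower genes with the smallest adjusted p were Qdpr (log2 fold change -0.81) and Gch1 (-2.31), enzymes of the tetrahydrobiopterin cofactor, and Htr1a (-2.31), a serotonin receptor. Pts, which makes the same cofactor, averaged 52.4 ± 4.72 CPM in the astrocyte fraction and 20.1 ± 1.87 CPM in the input (SD, n = 5 each, log2 fold change 1.37, adjusted p = 2.89e-08). The other higher genes were Spr, a further enzyme of that cofactor, and the monoamine oxidase genes Maoa and Maob, with log2 fold changes of 1.09, 1.41 and 2.02. Ddc and Slc18a2 of this list are also on the dopamine list. Slc6a4, Fev and Tph1 were also listed but were not found in the table under these symbols, so they could not be tested.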

How the data were processed

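PolyA RNA of 5 astrocyte fraction and 5 input libraries (NEB Ultra II, 25 ng of total RNA, per the labels' protocols) was analysed. The members and lists were chosen with earlier results of these data known. The authors deposited the expected counts per gene unscaled, made from reads on mm10, per the file headers and the submitters' processing notes. The authors also deposited normalized log2 values, centred on an input median of 0. Those notes list CASAVA 1.8 and DESeq with no role, and aligner, counter and strand setting were not given in the sources used here. GENCODE M21, which gave exon lengths, holds 18430 of the identifiers. Sequences are from RefSeq.

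The counts were rounded and tested with edgeR 4.0.16 (limma 3.58.1, R 4.3.3): TMM scaling, filterByExpr at a minimum of 10 counts (17672 genes kept, 792 removed), robust quasi-likelihood test, Benjamini-Hochberg adjustment, prior count 2, no block. A positive log2 fold change means higher in the astrocyte fraction. The fit was tested on simulated data. Depths and count limits stand in the text, and intervals and limits cover counting error only. Alternatives were DESeq2 1.42.0, other scalings and filters, libraries left out and the title number as a block. After removal of group means, libraries of the same number had correlations of 0.189 to 0.493 over genes (mean 0.318), and those of different numbers -0.319 to 0.303 (mean -0.0793). For 4 of 5 astrocyte fraction libraries the input of the same number correlated best. Every same-number correlation was above 0.1, but some between different numbers were too, so the correlations do not by themselves establish the pairing. The shared title numbers were used to pair libraries. The labels do not say that numbers are animals, so p-values measure only how these samples vary. Named are the 6 members, Slc18a3, up to 3 called genes of a described list with the smallest adjusted p and 1 in the other direction, and the 3 genes nearest in input profile to each member that varied over 2-fold, with at least 1 CPM in the inputs. Ttr, Pou4f1, Gpr151, Htr5b, Neurod2, Neurod6, Spr, Maoa, Maob, Ddc, Slc18a2 and Slc17a5 were named after their values were seen or as the only genes of their kind. Some genes that these rules give are not reported here.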

Additional observations from a re-analysis of the deposited data

Results flagged for a closer look

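Dixon's test at its 95% critical value was applied to 21 groups of values and chance flags about 1 in 20 such groups. In these data 3 were found. Chat had 1.70 CPM in the astrocyte fraction library 92, far above the other 4 astrocyte fraction libraries at 0.372 to 0.751 CPM, and this value rests on 6 counts in the library with the fewest counts. The level of Chat in that astrocyte fraction was 554% of the input of number 92, against 7.37 to 85.3% in the other numbers. Tph2 had 30.7 CPM in the input 976, far above the other 4 inputs at 0.249 to 6.50 CPM, on 832 counts. Input 976 also held 2965 CPM of Ttr, the main transcript of the choroid plexus, against 604 CPM in input 982 and 0.334 to 2.70 CPM in the other inputs, and its part in the Tph2 level was not tested.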

How the results depend on the processing

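Over all settings, 475 values were recomputed: 450 kept their direction and side of the threshold or stayed within their spread, 11 passed the threshold newly, 9 no longer passed it, 4 values moved and 1 changed direction. The change of direction was that of Tph2, 0.092 without input 976, within a range of -2.94 to 0.092 when 1 library or number was left out. With the title number as a replicate block all 6 members were lower (Slc17a7 -2.40, adjusted p = 1.93e-05, Tph2 -1.68, adjusted p = 0.00054), against 4 without it, and 3 to 5 when 1 library or number was left out. The block changed no other call of a member. Slc17a7 also passed with total counts as library size (adjusted p = 0.0356), with a mean of at least 1 CPM (0.0447) and with DESeq2 (0.0117), and ranged from 0.0415 to 0.133 with 1 library or number left out. Chat did not pass without numbers 976 and 982 (-1.90, adjusted p = 0.250). Total counts as library size moved the median of all genes to -0.34 from -0.06, the share of higher among called genes to 34.0% from 46.9%, and the median residual of Slc17a6 to 14.0% from 17.4%. Without numbers 976 and 982 the median residual was 85.3% for Chat and 10.9% for Tph2. The input range of Slc17a8 was 1.19 to 1.90 with 1 input left out. The cause of these changes was not tested. Slc18a3 could not be tested without number 982, or without 976 and 982. Depth limits Chat, Slc5a7, Slc17a8 and Tph2 in the astrocyte fraction library 92, where 1 count is worth more than in any other library. The mean residual differences from the pan-neuronal median with each number left out were computed after seeing the data, as were the block without numbers 976 and 982 and the input ranges from the authors' values.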

Other observations

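Some genes of the regional lists, named after their values were seen, had the same high inputs as Slc17a7 and Tph2. Neurod2, a transcription factor of cortical and hippocampal excitatory neurons, had 1.74, 1.25, 33.6, 1.81 and 25.8 CPM in the inputs 88, 92, 976, 981 and 982. Neurod6, of the same family, had 0.684, 0.517, 19.3, 1.26 and 11.4 CPM in the same order. Gpr151, a receptor gene of habenular neurons, had 1.06, 1.37, 20.6, 0.686 and 18.7 CPM, and Pou4f1, a transcription factor of the medial habenula and red nucleus, had 3.57, 2.62, 20.1, 3.80 and 19.5 CPM. Each of these was high in inputs 976 and 982 and low in the other 3. Htr5b, a serotonin receptor gene, had 0.222, 0.182, 3.57, 0.832 and 4.66 CPM, and was not called between astrocyte fraction and input (log2 fold change -1.59, adjusted p = 0.191). Chat and Slc5a7 differed from these genes in input 88, where they were as high as in inputs 976 and 982.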
